A study of Rattus norvegicus with 288 samples.

Results

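The ATP-binding cassette (ABC) genes of the rat were followed in heart, kidney and liver. Members were all genes whose symbol on the array begins with Abc, a subfamily letter from a to g and a digit, and whose log2 level was over 6 on 4 or more arrays of any tissue. Of 37 such genes with a probe set of their own, 35 were members, out of 14218 genes on the array. Abcb9 (over 6 on 2 heart, 1 kidney and 2 liver arrays) and Abcd2 (0, 0 and 1 arrays) fell just outside, while Abcg4, with 8 kidney arrays over 6 and no other tissue tested, was just inside. The symbol rule leaves out Tap1, Tap2 and Cftr, which belong to the same superfamily under other names. The same level filter, applied tissue by tissue, left 29 members for testing in the heart, 32 in the kidney and 33 in the liver.

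The rats were 96 male Sprague-Dawley animals of 8 weeks with a femoral vein cannula. Each received a 30 min intravenous infusion of oxaliplatin at 15 mg/kg, a platinum drug that crosslinks DNA, or of dextrose in water (D5W), its vehicle. An oral dose followed 30 min after the infusion, namely sunitinib at 5 mg/kg or its vehicle sterile water (water), or sorafenib at 25 mg/kg or its vehicle, a mix of PEG400, propylene glycol and Pluronic F68 (F68 in short), and tissues were taken 1, 6 or 24 h later. Sunitinib and sorafenib are inhibitors of receptor tyrosine kinases, among them the VEGF receptors. The 8 treatments at 3 times gave 24 groups of 4 rats per tissue and 72 groups in all, with 1 array per rat and tissue. All rats were cannulated, healthy and without tumours, and each was dosed once. Rats given water or sunitinib were dosed on another day than rats given F68 or sorafenib, so that F68 and dosing day cannot be told apart.

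ABC proteins bind and hydrolyse ATP. Most are pumps that move a substrate across a membrane, either as 1 polypeptide or as a pair of smaller proteins. In hepatocytes the canalicular pumps make bile: Abcb11 exports bile salts, Abcb4 flips phosphatidylcholine, Abcg5 and Abcg8 pair to export sterols, and Abcc2 exports conjugates of glutathione, glucuronate and bilirubin. Abcb1a (P-glycoprotein), Abcg2 and the Abcc multidrug resistance proteins limit how far drugs enter tissues, and sunitinib and sorafenib are known substrates of ABCB1 and ABCG2 in man. Abcb6, Abcb8 and Abcb10 are tied to mitochondria, Abcd3 to peroxisomes and Abcd4 to lysosomes. Subfamilies E and F have the ATPase domains but no membrane part, and act on ribosomes: Abce1 splits ribosomes after termination, and Abcf1, Abcf2 and Abcf3 are relatives of the yeast translation factors Gcn20 and Arb1.

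Tissue identity was checked by the median level of lists of defining genes on each array. Over the 286 arrays used, the heart list lay between 14.31 and 14.56 log2 on heart arrays, the kidney list between 12.57 and 13.18 on kidney arrays and the liver list between 14.77 and 14.89 on liver arrays. A pair of arrays of rats given D5W then sorafenib at 24 h carried the other tissue's genes and was left out: a liver array (replicate 1) had the kidney list at 12.73 and the liver list at 6.53, and a kidney array (replicate 4) had the liver list at 14.65 and the kidney list at 7.56. Both groups therefore held 3 rats. Some kept arrays held a little of another tissue, with liver genes at 10.23 in the kidney of another rat of that group (replicate 2) and heart genes at 9.1 in a kidney at 1 h after D5W and sorafenib (replicate 1). The array median spanned 6.63 to 6.69 for heart, 7.32 to 7.81 for kidney and 6.66 to 6.78 for liver. The 7.81 came from a kidney at 1 h after oxaliplatin and sunitinib (replicate 1), whose group otherwise lay at 7.34 to 7.35. A 3′ minus 5′ difference of the beta-actin control probe sets, which is larger where transcripts are degraded or labelling stops early, spanned 0.13 to 0.81 for heart, 0.34 to 0.65 for kidney and 0.64 to 0.98 for liver.

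The 3 tissues carried different sets of ABC genes. In the 24 vehicle rats (D5W with water or F68, all times), levels of 1 probe set per gene were compared between tissues, and a gene was called where the adjusted p was under 0.05 and the difference at least 1 log2. Of the 37 ABC genes, 17 were called between heart and kidney (background 38.5% of all genes), 16 between heart and liver (background 31.6%) and 21 between kidney and liver (background 31.6%). Each rat gave all 3 tissues, but the labels do not say which arrays belong to 1 rat, so the fit treats them as independent. The first part of the array code in the labels also differs between the tissues, so tissue and that code cannot be told apart. In all, 26 were called between at least 1 pair of tissues, and 23 after quantile normalization over all 3 tissues. The share of all genes called between at least 1 pair was not counted, and the shares of single pairs are no background for these counts. The median gene differed by -0.59 log2 between heart and kidney and by 0.45 between kidney and liver, and by 0.11 and -0.05 after that normalization, so only differences that held their sign and call under both are named next. Whether the authors normalized the tissues together is not given in the sources used here.

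Liver stood highest for the bile pumps. Abcb11, the bile salt export pump, ranged from 12.48 to 12.85 log2 in liver (median 12.64), from 4.88 to 5.38 in kidney and from 4.14 to 4.47 in heart. No vehicle rat of another tissue came near the liver range, and since its kidney and heart levels lay under the level filter of 6, no fold is given. Abcc2 (multidrug resistance protein 2) was at a mean of 11.67 ± 0.43 (SD) in liver, 8.01 ± 0.28 in kidney and 4.79 ± 0.14 in heart, an order with no overlap between neighbours. Abcb4 was at 9.47 ± 0.24 in liver and at 7.03 ± 0.11 in kidney. Abcc6, whose human form is mutated in pseudoxanthoma elasticum, was at 11.12 ± 0.12 in liver, 8.68 ± 0.13 in kidney and 6.04 ± 0.14 in heart. Abca1, which loads cholesterol onto apolipoprotein A-I, differed by -3.24 ± 0.15 (SE) between kidney and liver, the liver being higher. Abcg5 was at 7.43 ± 0.76 in liver and at 5.72 ± 0.12 in kidney, whereas its partner Abcg8 was under 6.5 on all vehicle livers (4.74 to 6.46).

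Kidney stood highest for another set. Abcg2, the breast cancer resistance protein, was at 11.98 ± 0.12 (SD, n = 24) in kidney, 9.15 ± 0.61 in liver and 6.14 ± 0.14 in heart, and the ranges did not overlap. Abca4, known as the retinoid flippase of photoreceptors, was at 9.76 ± 0.18 in kidney and at 5.56 ± 0.13 in liver. Abcc4, which exports cyclic nucleotides and organic anions, was at 9.91 ± 0.18 in kidney, 7.36 ± 0.23 in heart and 6.72 ± 0.27 in liver. Abca7, a lipid transporter, differed by -2.02 ± 0.04 (SE) between heart and kidney, the kidney being higher. Heart stood highest for Abcc9, the sulphonylurea receptor SUR2 of cardiac and vascular ATP-sensitive potassium channels, at 11.25 ± 0.21 against 8.75 ± 0.19 in kidney and 8.89 ± 0.42 in liver. Abcc3 was 2.52 ± 0.05 (SE) higher in heart than in liver. Abcb1a was lowest in heart, at 5.03 ± 0.17 (SD) on the probe set used for this comparison, against 7.12 ± 0.43 in kidney and 6.69 ± 0.51 in liver.

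**Figure D1:**
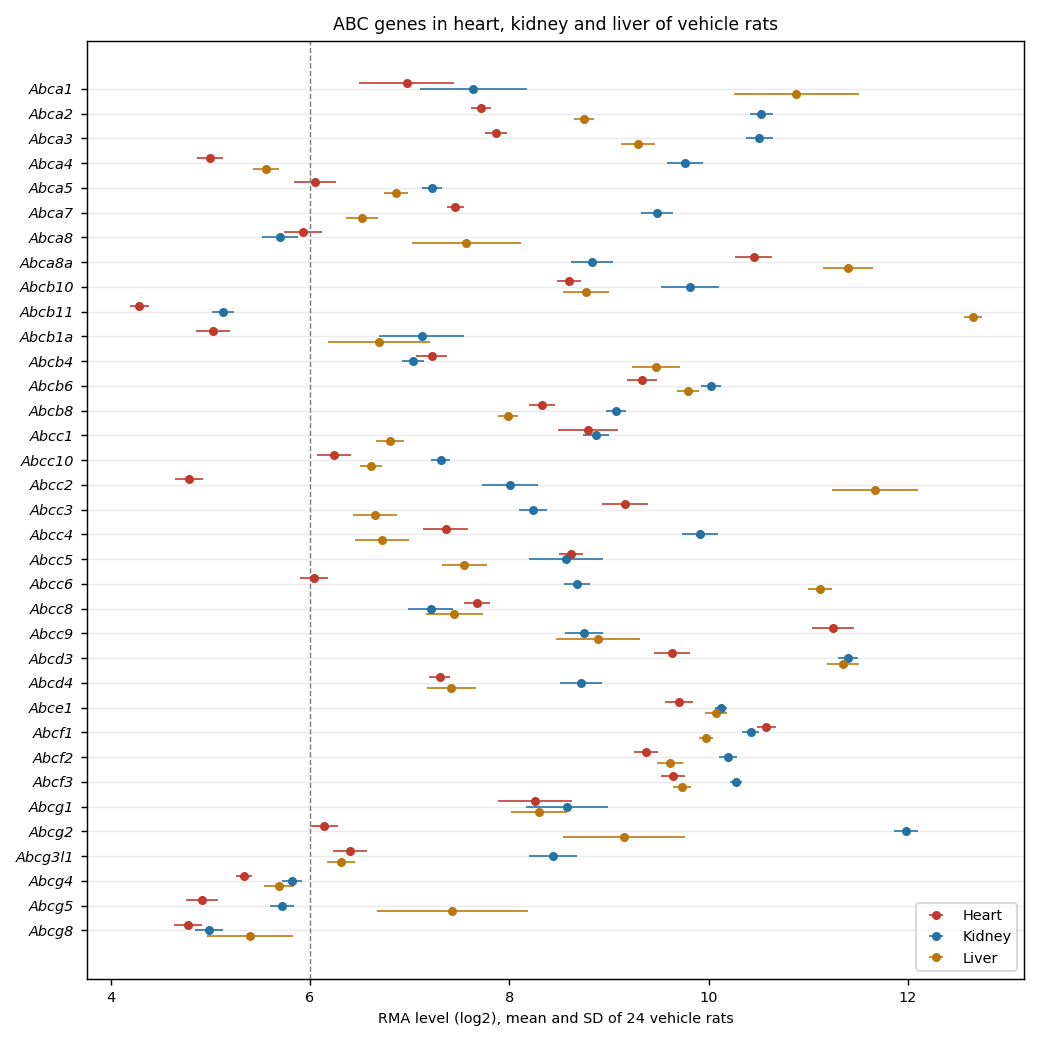
RMA level (log2) of the 35 ABC genes in heart, kidney and liver of the vehicle rats, as mean (point) and SD (bar) of 24 rats; the dashed line marks the level filter of 6. Levels are to be read within a row, since probe sets of different genes differ in brightness, and Abcb11 separates liver from both other tissues most widely.

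The spread between rats also differed among members. Among the vehicle livers Abcb11 had an SD of 0.09 log2, whereas Abcg5 had 0.76, Abca1 0.63, Abcg2 0.61 and Abcb1a 0.51. Abcg5 ranged from 6.2 to 8.87 over vehicle livers and Abcg8 from 4.74 to 6.46. Across all 95 livers, after the mean of each group was taken off, Abcg5 and Abcg8 had a Pearson r of 0.95 and a Spearman rho of 0.95 (two-sided permutation within groups, p = 1e-05 for both, the smallest that 100000 permutations can give, 1 relation computed). Without the 2 livers farthest from the median of Abcg5 r was 0.95, and it was 0.95 among the water and sunitinib livers (n = 48) and 0.95 among the F68 and sorafenib livers (n = 47), each dosed on a day of its own. Within the groups, livers high in one partner were high in the other. The transcription starts of the 2 genes lie 206 bases apart on opposite strands of chromosome 6, and their promoter windows share 295 bases. The Abcg5 window is printed to show this common stretch, 5′ to 3′ on the plus strand at chr6:15717686-15717985 (RefSeq, GRCr8), with the letters TGACNNNGC, the core of the antioxidant response element, in capitals.
Abcg5: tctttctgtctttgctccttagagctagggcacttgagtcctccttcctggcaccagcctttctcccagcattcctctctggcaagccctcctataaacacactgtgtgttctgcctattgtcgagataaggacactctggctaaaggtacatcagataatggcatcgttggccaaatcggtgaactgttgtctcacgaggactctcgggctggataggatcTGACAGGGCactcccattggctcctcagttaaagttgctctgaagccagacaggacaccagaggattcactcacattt

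Oxaliplatin was compared with D5W in rats given an oral vehicle, as the average over water and F68 (8 rats against 8 at each time). It answers which ABC genes changed with the platinum drug alone. Calls are at an adjusted p under 0.05 (limma, Benjamini-Hochberg over all genes tested in the tissue), and differences are in log2 with the SE.

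In kidney the multidrug pump Abcc2 rose, by 1.85-fold at 6 h and 1.54-fold at 24 h, and all 4 of the soluble E and F members rose slightly at 6 h. At 6 h 9 of 32 members (28.1%) were called, against a background of 20.6% of 12310 genes, with 6 higher (background 12.7%) and 3 lower (background 7.88%), and the median over members was -0.02 beside 0.01 over all genes. At 1 h 5 members (background 9.41%) and at 24 h 5 members (background 7.8%) were called.

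Renal Abcc2 sits in the brush border of the proximal tubule and secretes conjugates into urine. At 6 h its log2 levels were 7.87, 8.04, 8.24 and 8.03 in the D5W water rats and 9.23, 9.10, 8.58 and 8.72 in the oxaliplatin water rats. They were 8.27, 8.29, 7.28 and 7.62 in the D5W F68 rats and 9.05, 8.33, 8.47 and 9.21 in the oxaliplatin F68 rats. Each of the 8 oxaliplatin kidneys was above each of the 8 D5W kidneys. The difference was 0.89 ± 0.14 (adjusted p = 1.28e-06), with 0.86 ± 0.20 among water rats (adjusted p = 0.00151) and 0.91 ± 0.20 among F68 rats (adjusted p = 0.00122). At 1 h the ranges overlapped, with differences of -0.15 among water and 0.11 among F68 rats. At 24 h the oxaliplatin kidneys were at 9.01, 8.68, 8.68 and 8.95 with water and 8.26, 8.40, 8.73 and 8.66 with F68. The D5W kidneys were then at 8.09, 8.51, 7.99 and 8.01 with water and 8.03, 7.99, 7.88 and 7.87 with F68. Here 1 D5W rat reached into the oxaliplatin range, and the difference was 0.63 ± 0.14 (adjusted p = 0.00208). It lost its call with the misplaced arrays kept as labelled (adjusted p = 0.173) and among the F68 rats alone (0.57, adjusted p = 0.146), and was called among the water rats alone (0.68, adjusted p = 0.0497). In liver Abcc2 differed by -0.33 ± 0.13 at 6 h and did not pass the test (adjusted p = 0.105).

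**Figure D2:**
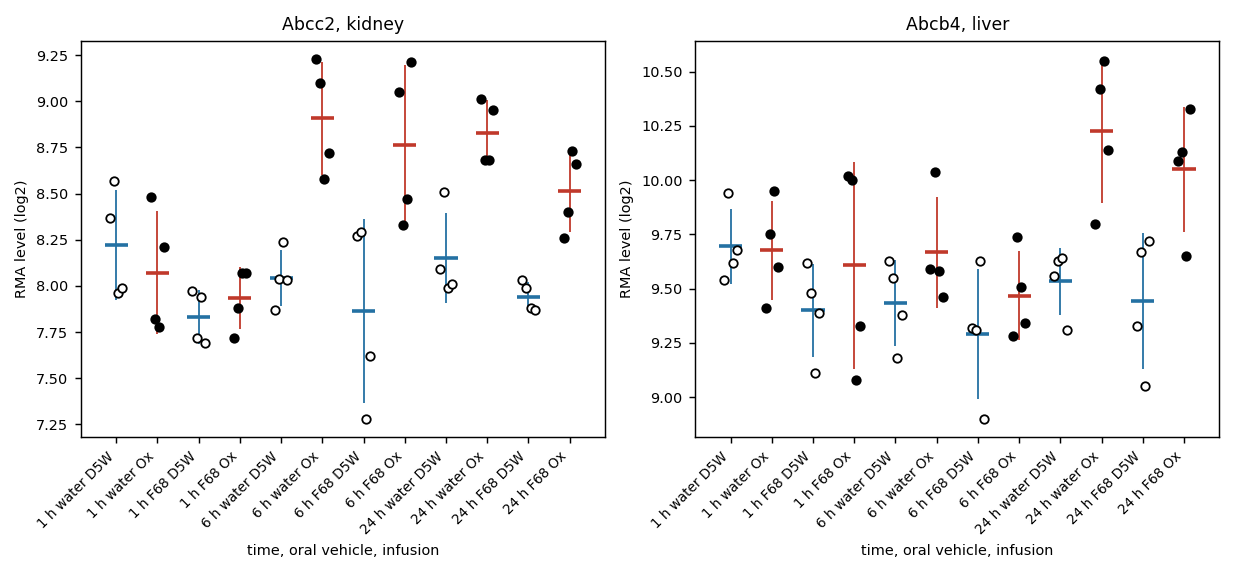
RMA level (log2) of each rat for Abcc2 in kidney (left) and Abcb4 in liver (right), by time, oral vehicle and infusion (open circles D5W, filled circles oxaliplatin, Ox), with the group mean as a horizontal and the SD as a vertical line, 4 rats per group. The Abcc2 points of the oxaliplatin rats lie above those of all D5W rats at 6 h, and the Abcb4 means of the oxaliplatin rats are higher at 24 h.

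The Abcc2 promoter window is printed because this gene moved most among the members in kidney. It is the plus strand of chr1:252613625-252613924 (RefSeq, GRCr8), from 250 bases before to 50 after the start, with TGACNNNGC in capitals, searched on both strands.
Abcc2: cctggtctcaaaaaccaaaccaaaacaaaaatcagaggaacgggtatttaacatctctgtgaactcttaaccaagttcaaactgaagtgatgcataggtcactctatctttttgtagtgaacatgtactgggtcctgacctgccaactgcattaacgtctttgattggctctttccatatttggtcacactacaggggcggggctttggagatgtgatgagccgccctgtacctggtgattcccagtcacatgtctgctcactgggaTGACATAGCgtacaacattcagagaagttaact
The match begins 17 bases after the start. These letters occur in 12.1% of the 33469 rat promoter windows of the same length and in 5 of the 28 members with a window (Abca5, Abcc10, Abcc2, Abcg5 and Abcg8), so a match is common. Genes of a list of targets of Nrf2, the factor that binds antioxidant response elements, were measured beside it. At 6 h 4 of 8 tested rose and 1 fell, with Nqo1 at 1.63 ± 0.19, Hmox1 at 1.53 ± 0.20, Srxn1 at 1.40 ± 0.23 and Txnrd1 at 0.60 ± 0.05, and Gclc at -0.22. At 24 h Nqo1 was at 0.74 and Gsr at 0.28, and Hmox1 was no longer called. Binding of Nrf2 was not measured, and its part in the Abcc2 rise was not tested.

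The soluble members formed the other group that moved in kidney at 6 h. Abcf2 was at 10.23, 10.30, 10.14 and 10.15 in D5W water rats and 10.49, 10.50, 10.35 and 10.42 in oxaliplatin water rats. In the F68 rats it was at 10.27, 10.20, 10.35 and 10.25 after D5W and 10.44, 10.55, 10.38 and 10.43 after oxaliplatin. The ranges of all 8 and 8 rats touched at 10.35, and the difference was 0.21 ± 0.04 (adjusted p = 2.88e-05). Abce1 rose by 0.19 ± 0.04, Abcf3 by 0.18 ± 0.03 and Abcf1 by 0.16 ± 0.04, which made 4 of 4 members of this list. Of a list of 6 genes whose products act on ribosomes, 3 rose (Pelo by 0.28, Gspt1 by 0.26 and Etf1 by 0.17). Within each oral vehicle the 4 soluble members kept a positive difference, with Abce1 at 0.14 (adjusted p = 0.119) and Abcf1 at 0.09 (adjusted p = 0.313) not called among F68 rats.

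Other renal calls were small. Abcd4, a lysosomal transporter needed for vitamin B12 release, rose by 0.31 ± 0.07 at 6 h. Abcc1 (multidrug resistance protein 1) fell by 0.20 at 1 h and by 0.31 ± 0.06 at 6 h, with 8.86, 8.64, 8.85 and 8.85 in D5W water rats against 8.62, 8.54, 8.65 and 8.55 in oxaliplatin water rats at 6 h. The lipid transporters Abca2 (-0.25) and Abca3 (-0.17) were lower at 6 h. Of the genes in the list of sterol and phospholipid exporters, 2 of 8 tested fell and 0 rose, and of the multidrug exporters 1 of 8 rose and 1 fell. Genes marking the kidney itself also moved at 6 h, with 4 of 8 lower, among them Cubn (-0.47), Slc12a3 (-0.28) and Lrp2 (-0.22), while the median level of that list was 12.95 in both arms. Its part in these results was not tested. In whole tissue, fewer cells of a type and less RNA per cell cannot be told apart, and this holds for all comparisons.

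At 1 h the 5 calls were all lower (background in that direction 4.96%), by 0.18 to 0.21 (Abca2, Abca3, Abca5, Abcc1 and Abcc4). The count fell to 1 without Oxaliplatin water replicate 2, to 2 without Oxaliplatin F68 replicate 1 or 2, and to 3 without any 1 of D5W F68 replicates 1 to 3, D5W water replicates 2 and 3 and Oxaliplatin F68 replicates 3 and 4. At 24 h all 5 calls were higher (background in that direction 5.61%): beside Abcc2, Abcc3 by 0.29 ± 0.07, a basolateral pump for conjugates, Abcb6 by 0.25 ± 0.05, Abcb8 by 0.21 ± 0.05 and Abcf1 by 0.16 ± 0.04. Abcb6 and Abcf1 had no overlap between arms. Of 13 partners of bile acid and organic anion transport, Slc51a (0.62) and Slc10a2 (0.55) rose and Slco1a1 (-0.27) fell. Of 12 haem and iron-sulphur partners, Ppox (0.27) and Alad (0.21) rose and Alas2 (-1.04), an erythroid gene, fell. Renal Abcg2 was not called at any time, with arm means of 11.93 to 12.03 and differences of -0.03 ± 0.05 at 1 h, -0.02 ± 0.05 at 6 h and 0.00 ± 0.05 at 24 h.

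In liver the soluble members rose again at 6 h, and Abcb4 rose at 24 h. At 6 h 5 of 33 members were called (background 10.4%). Abce1 rose by 0.25 ± 0.06 (adjusted p = 0.00329), Abcf2 by 0.22 ± 0.05, Abcf3 by 0.22 ± 0.04 and Abcf1 by 0.18 ± 0.05, so that 4 of 4 soluble members rose in this tissue too. For Abce1 and Abcf3 the ranges of the 8 oxaliplatin and the 8 D5W livers did not overlap. All 4 were positive within water rats and within F68 rats, where of these Abcf3 alone was called, among water rats. Of the list of 6 genes acting on ribosomes 2 rose (Gcn1 and Gspt1, both by 0.21). The difference between tissues in these rises was not tested.

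Promoter windows of soluble members are printed because the group moved together in kidney and liver. TGACGTCA, the palindromic cyclic AMP response element, is in capitals and occurs in 1.83% of all 33469 windows. It was found in 3 of the 28 members with a window, Abce1, Abcf2 and Abcg2. Abcf3 is shown as a member of the group without a match, and Abcf1 has no window in the table. The windows are chr19:45109685-45109984 (plus) for Abce1, chr4:11487072-11487371 (plus) for Abcf2 and chr11:93856546-93856845 (minus) for Abcf3, from RefSeq, GRCr8, each 5′ to 3′ along the gene.
Abce1: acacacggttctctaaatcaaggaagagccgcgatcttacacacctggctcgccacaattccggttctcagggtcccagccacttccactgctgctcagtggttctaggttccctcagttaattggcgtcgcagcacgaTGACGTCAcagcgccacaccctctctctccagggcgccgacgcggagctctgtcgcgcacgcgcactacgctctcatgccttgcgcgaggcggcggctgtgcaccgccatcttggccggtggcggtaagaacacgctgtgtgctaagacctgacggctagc
Abcf2: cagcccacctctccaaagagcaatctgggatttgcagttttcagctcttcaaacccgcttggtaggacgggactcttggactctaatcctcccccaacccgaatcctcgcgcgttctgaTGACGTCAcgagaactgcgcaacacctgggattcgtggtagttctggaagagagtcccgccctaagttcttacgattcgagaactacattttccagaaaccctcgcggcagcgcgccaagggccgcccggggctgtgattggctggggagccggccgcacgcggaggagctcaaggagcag
Abcf3: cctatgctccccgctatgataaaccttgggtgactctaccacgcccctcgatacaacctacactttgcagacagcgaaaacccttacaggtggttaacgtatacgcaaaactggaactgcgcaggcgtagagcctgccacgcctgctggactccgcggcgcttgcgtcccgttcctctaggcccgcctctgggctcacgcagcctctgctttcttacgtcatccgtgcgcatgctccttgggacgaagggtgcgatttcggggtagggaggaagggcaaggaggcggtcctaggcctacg
Counted from the start, the match begins at -111 in Abce1 and at -131 in Abcf2. A match of letters is a description, and binding was not measured.

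Abca8a, an orphan of subfamily A, was lower at 6 h after oxaliplatin. It stood at 11.35, 11.26, 11.39 and 11.40 in D5W water livers against 10.90, 11.00, 10.83 and 11.28 in oxaliplatin water livers. With F68 it stood at 11.67, 11.62, 11.64 and 11.85 after D5W against 11.15, 11.44, 11.12 and 11.01 after oxaliplatin. The arms did not overlap with F68 and overlapped by 1 rat with water, and the difference was -0.43 ± 0.11 (adjusted p = 0.00364, and 0.168 with the misplaced arrays kept as labelled). Of 7 macrophage markers 4 fell at this time, Adgre1 by 1.13 and Mrc1 by 0.59 among them, and their part in this result was not tested.

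At 1 h Abcg1, which exports cholesterol to lipoproteins and is induced by liver X receptors, was the 1 member called of 33 (background 3.46%). Its levels were 8.14, 8.66, 8.49 and 8.42 in D5W water and 7.90, 8.09, 7.61 and 8.00 in oxaliplatin water livers. With F68 they were 8.19, 8.02, 8.19 and 8.11 after D5W and 8.01, 7.71, 7.76 and 7.82 after oxaliplatin. The difference was -0.42 ± 0.10 (adjusted p = 0.00562). Of 12 sterol efflux partners Mylip, another liver X receptor target, fell by 0.48 ± 0.12 and no other passed. Endothelial markers Kdr (-0.84) and Tek (-0.58) and macrophage markers Mrc1 (-0.68) and Csf1r (-0.43) were lower as well, with 3 of 6 and 2 of 7 of those lists called, and their part was not tested.

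At 24 h 3 of 33 members were called (background 6.42%). Abcb4, the phosphatidylcholine flippase of bile, stood at 9.56, 9.63, 9.64 and 9.31 in D5W water livers and at 9.80, 10.42, 10.55 and 10.14 in oxaliplatin water livers. With F68 it stood at 9.33, 9.67, 9.05 and 9.72 after D5W and at 10.09, 10.13, 9.65 and 10.33 after oxaliplatin. Only the oxaliplatin F68 rat at 9.65 lay within the D5W range. The difference was 0.65 ± 0.15 (1.57-fold, adjusted p = 0.00374), with 0.69 among water rats (adjusted p = 0.0794) and 0.61 among F68 rats (adjusted p = 0.0856), and the adjusted p was 0.0511 with the misplaced arrays kept. Abca8 rose by 0.82 ± 0.26 (adjusted p = 0.042), a call kept in 4 of 16 fits that each left out 1 array, and Abcg3l1 fell by 0.28 ± 0.08 (adjusted p = 0.0288). The count was 1 without D5W F68 replicate 3, D5W water replicate 1, Oxaliplatin F68 replicate 2 or 3, or Oxaliplatin water replicate 1.

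The sterol pair gave larger means that did not pass. Abcg5 was 1.17 ± 0.48 higher (adjusted p = 0.13), ranging from 7.43 to 10.45 after oxaliplatin, and Abcg8 was 0.73 ± 0.33 higher (adjusted p = 0.178). Abcb11 differed by 0.01 ± 0.05 at 24 h, with arms at 12.72 each. Xenobiotic receptors moved at 24 h, with Nr1i3 (the constitutive androstane receptor) at 1.05, Ahr at 0.47 and Rxra at 0.29, and Cyp1a2 at 0.41, 4 of 11 of that list and 0 lower. Macrophage markers fell in 5 of 7 and erythroid markers in 4 of 4, and their part was not tested.

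**Figure D3:**
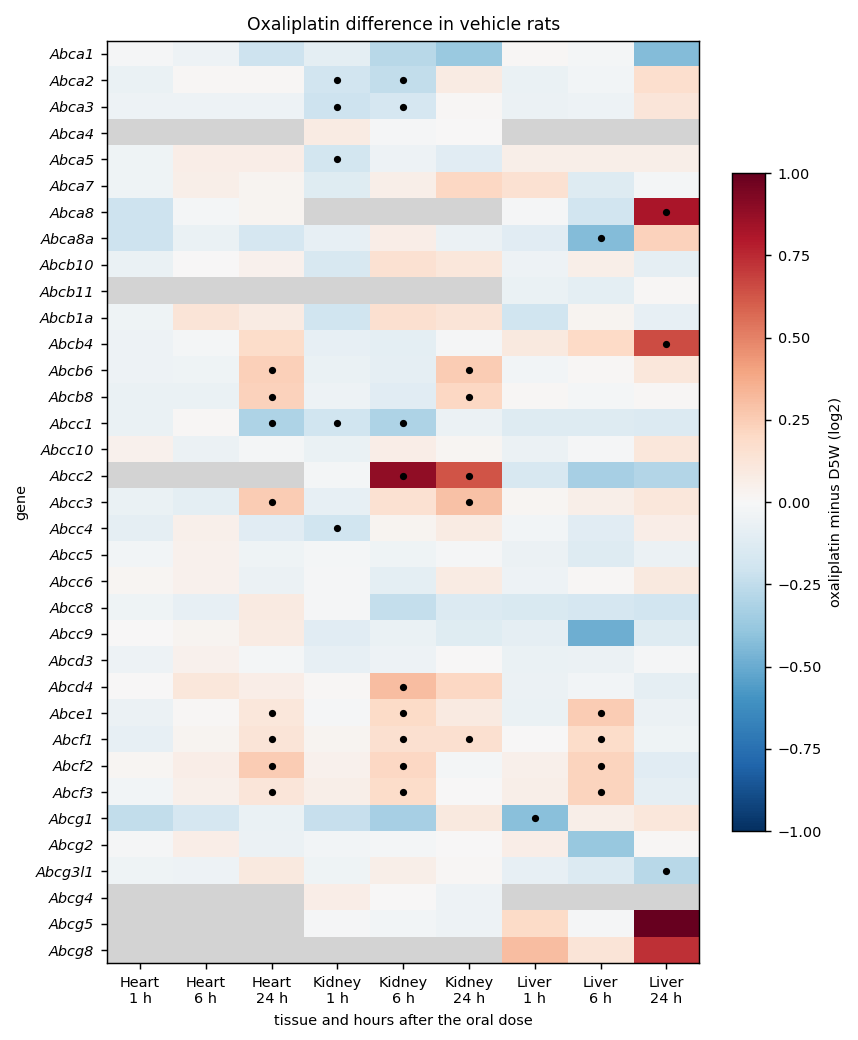
Oxaliplatin minus D5W difference (log2, colour from -1 to 1) for the 35 ABC genes in 3 tissues and at 3 times, 8 rats against 8, with a dot where the adjusted p was under 0.05 and grey where the gene was not tested in that tissue. The colour saturates for Abcg5 in liver at 24 h (1.17, not called). The Abcc2 cells of kidney at 6 and 24 h and the Abcb4 cell of liver at 24 h are the deepest red among the called ones beside Abca8, and the 4 soluble members are called in kidney and liver at 6 h and heart at 24 h.

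In heart 0 of 29 members were called at 1 h (background 1.23%, 3 at an unadjusted p under 0.05, limma) and 0 at 6 h (background 0.866%, 1 unadjusted). At 24 h 8 were called (background 19.2%): Abcc1 fell by 0.31 ± 0.05, and Abcf2 (0.25), Abcc3 (0.25), Abcb6 (0.24), Abcb8 (0.23), Abcf1 (0.13), Abcf3 (0.12) and Abce1 (0.11) rose. Abcf2 stood at 9.15, 9.13, 9.09 and 9.10 in D5W water hearts and 9.52, 9.48, 9.54 and 9.42 in oxaliplatin water hearts, but at 9.37, 9.43, 9.42 and 9.41 in D5W F68 hearts and 9.40, 9.55, 9.62 and 9.56 in oxaliplatin F68 hearts. Among water rats 8 members were called and among F68 rats 0, with Abcc1 at -0.54 and -0.09, and the difference between vehicles was not tested. The share over all genes within each vehicle was not counted, so these counts do not set the members apart.

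The D5W water hearts at 24 h stood apart from most other heart groups, and the D5W sorafenib hearts at 6 h stood with them. The beta-actin 3′ minus 5′ difference had a group median of 0.76 and 0.69 in these groups and of 0.24 to 0.47 in the other 22. Abcc1 was at 9.38 and 9.43 in them and at 8.53 to 8.88 in the other 22 groups. Abcf2 was at 9.12 and 9.20 against 9.40 to 9.53, and Abcd3 at 9.96 in both against 9.47 to 9.81. Of the 29 members tested in heart, 3 were highest in both groups (Abca8a, Abcc1 and Abcd3) and 6 were lowest in both (Abcb6, Abcb8, Abcc3, Abcf1, Abcf2 and Abcf3). The share over all genes was not counted, so these counts do not set the members apart. Every comparison with one of these groups as an arm carries this difference in heart. These are oxaliplatin, sunitinib after D5W and F68 against water at 24 h, and sorafenib after D5W at 6 h. The tests of whether oxaliplatin changed the sunitinib effect at 24 h and the sorafenib effect at 6 h carry it too. What part RNA quality had in it was not tested beyond the fit with beta-actin as a covariate.

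**Figure D4:**
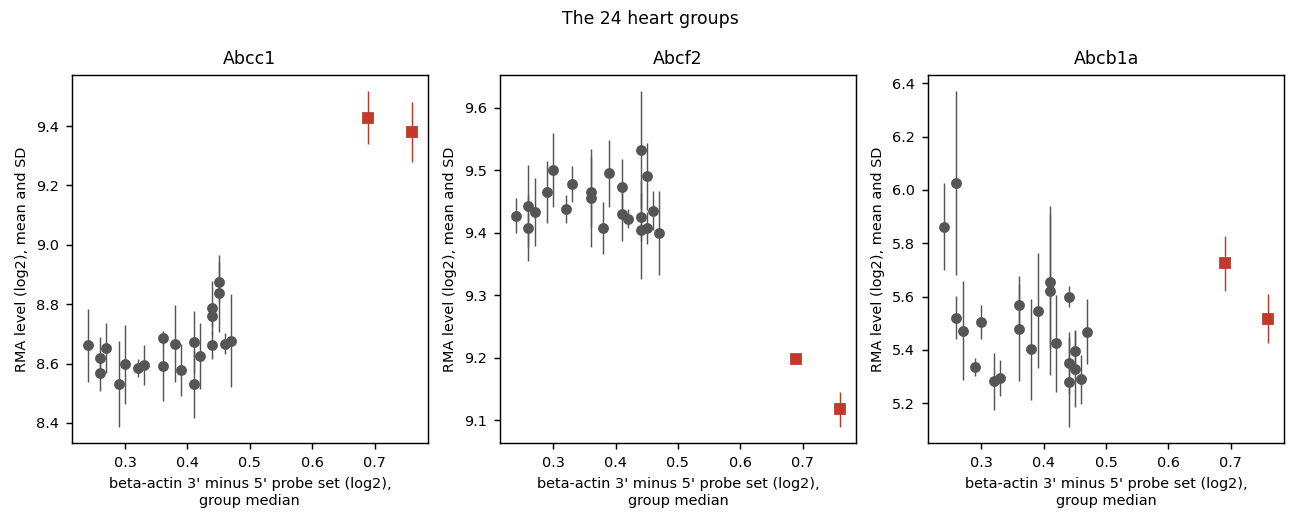
Mean level (log2, bar SD, 4 rats) of Abcc1, Abcf2 and Abcb1a in the 24 heart groups against the group median of the beta-actin 3′ minus 5′ difference (log2). The red squares are the D5W water 24 h and D5W sorafenib 6 h groups, which lie apart from the other 22 groups for Abcc1 and Abcf2 and within their range for Abcb1a.

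Sorafenib was compared with F68 at each time, in rats given D5W and in rats given oxaliplatin (4 rats against 4). The comparisons ask whether the kinase inhibitor changed ABC genes and whether oxaliplatin altered that change. Each has its own F68 group, and those groups are also arms of the oxaliplatin comparison, so the comparisons share control rats.

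In liver at 24 h after D5W the multidrug pump Abcg2 and the soluble members were lower in 3 sorafenib rats than in 4 F68 rats. In this comparison 17 of 33 members (51.5%) were called beside 67.3% of all genes, 4 higher (background 19.1%) and 13 lower (background 48.2%). The median over members was -0.24, as over all genes (-0.24). The 3 sorafenib livers also stood apart as arrays. Their beta-actin 3′ minus 5′ difference had a group median of 0.67, against 0.76 to 0.9 in the other liver groups. Their array medians were 6.74 to 6.78, against 6.69 to 6.71 in the F68 livers. What part this had was not tested beyond the fits with beta-actin as a covariate and with a further quantile normalization. Abcg2 stood at 9.59, 9.30, 8.11 and 9.84 in the F68 livers and at 7.97, 7.78 and 7.83 in the sorafenib livers. The arms did not overlap, though 1 F68 liver at 8.11 lay close to them, and the difference was -1.35 ± 0.44 (2.55-fold, adjusted p = 0.00551, and 0.0597 with beta-actin as a covariate). Abcc4 stood at 6.90, 6.63, 6.68 and 6.78 in F68 and at 5.76, 6.03 and 6.18 in sorafenib livers, a fall of 0.76 ± 0.17. Abcc9 was lower by 1.08 ± 0.37, with 8.55, 9.89, 8.77 and 8.22 against 7.84, 7.57 and 7.94. Thus 2 of 8 multidrug exporters fell and 1, Abcc10, rose by 0.44 ± 0.10.

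The soluble members fell in 4 of 4, in a comparison where 48.2% of all genes were called lower and members and all genes had the same median. Abce1 stood at 9.99, 10.04, 10.06 and 10.04 in F68 livers and at 9.28, 9.13 and 9.47 in sorafenib livers, a fall of 0.74 ± 0.09 (adjusted p = 2.68e-10) with the arms far apart. Abcf1 (-0.52), Abcf2 (-0.44) and Abcf3 (-0.24) were lower as well. After a further quantile normalization of the liver arrays Abce1 was still called (adjusted p = 5.89e-05), Abcf1 and Abcf2 were not (adjusted p = 0.12 and 0.524), and Abcf3 turned to 0.16 (adjusted p = 0.0164). Of the listed genes acting on ribosomes 5 of 6 were lower. The organelle transporters Abcb10 (-0.46), Abcb8 (-0.27), Abcd3 (-0.46) and Abcd4 (-0.44) were lower, and of these Abcd4 alone was called after that normalization. Of 12 haem and iron-sulphur partners 11 were lower, with Alas1, the rate-limiting step of hepatic haem synthesis, at -0.86.

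Some members went up or stayed level. Abcg8 stood at 5.03, 5.27, 5.02 and 5.81 in F68 and 5.84, 6.77 and 6.65 in sorafenib livers, a rise of 1.14 ± 0.51 (adjusted p = 0.0431) that was called in 2 of 7 fits leaving out 1 array. Abcg8 was over the level filter of 6 on 33 of 95 livers, and all these F68 livers and the sorafenib liver at 5.84 lay under it. Its partner Abcg5 stood at 6.90, 7.14, 6.47 and 8.58 against 7.50, 8.92 and 8.84, which overlapped and were not called. Abca5 (0.41 ± 0.09) and Abca2 (0.31 ± 0.09) were higher. Abcb11 did not pass, at -0.10 ± 0.07 with means of 12.56 and 12.66. Among bile acid partners Cyp7a1, the first enzyme of bile acid synthesis, was at -1.21 and Nr1h4, the bile acid receptor FXR, at -0.41, and 6 of 16 in that list fell and 1 rose. Macrophage markers were lower in 7 of 7, by 0.47 to 1.61, kidney markers were higher in 4 of 6 and heart markers in 2 of 2. The median of the kidney list was at 6.29 to 6.66 in the 3 sorafenib livers and 6.05 to 6.17 in the 4 F68 livers, and that of the macrophage list at 9.88 to 10.19 and 10.76 to 11.02. The part of these in the results was not tested.

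After oxaliplatin the same dose gave 0 of 33 calls in liver at 24 h (background 1.38%, 3 at an unadjusted p under 0.05, limma), and the difference between both effects was called for 9 members (background 38.2%). The D5W sorafenib livers that stood apart enter that difference. For Abce1 the oxaliplatin arms were at 10.09, 9.99, 9.96 and 9.85 with F68 and 9.92, 9.36, 9.94 and 9.76 with sorafenib. Its effect differed by 0.52 ± 0.13 from that after D5W (adjusted p = 0.00118). For Abcg2 the oxaliplatin arms were at 9.91, 9.02, 8.27 and 8.15 with F68 and 9.65, 8.62, 9.02 and 9.96 with sorafenib, overlapping and widely spread, and the effect differed by 1.83 ± 0.60 (adjusted p = 0.0134). Abcd4 (0.47), Abcd3 (0.44), Abcf1 (0.42), Abcf2 (0.33) and Abcb8 (0.29) differed upwards, and Abcc10 (-0.41) and Abca5 (-0.35) downwards. The count was 5 without D5W sorafenib replicate 3 or Oxaliplatin sorafenib replicate 3, and 0 where only the 4 groups of the comparison entered the fit. At 1 h and 6 h 0 members were called in liver in either arm (background 0.0689% and 0.0344% after D5W, 0.189% and 0.207% after oxaliplatin, with 2, 4, 2 and 7 at an unadjusted p under 0.05).

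**Figure D5:**
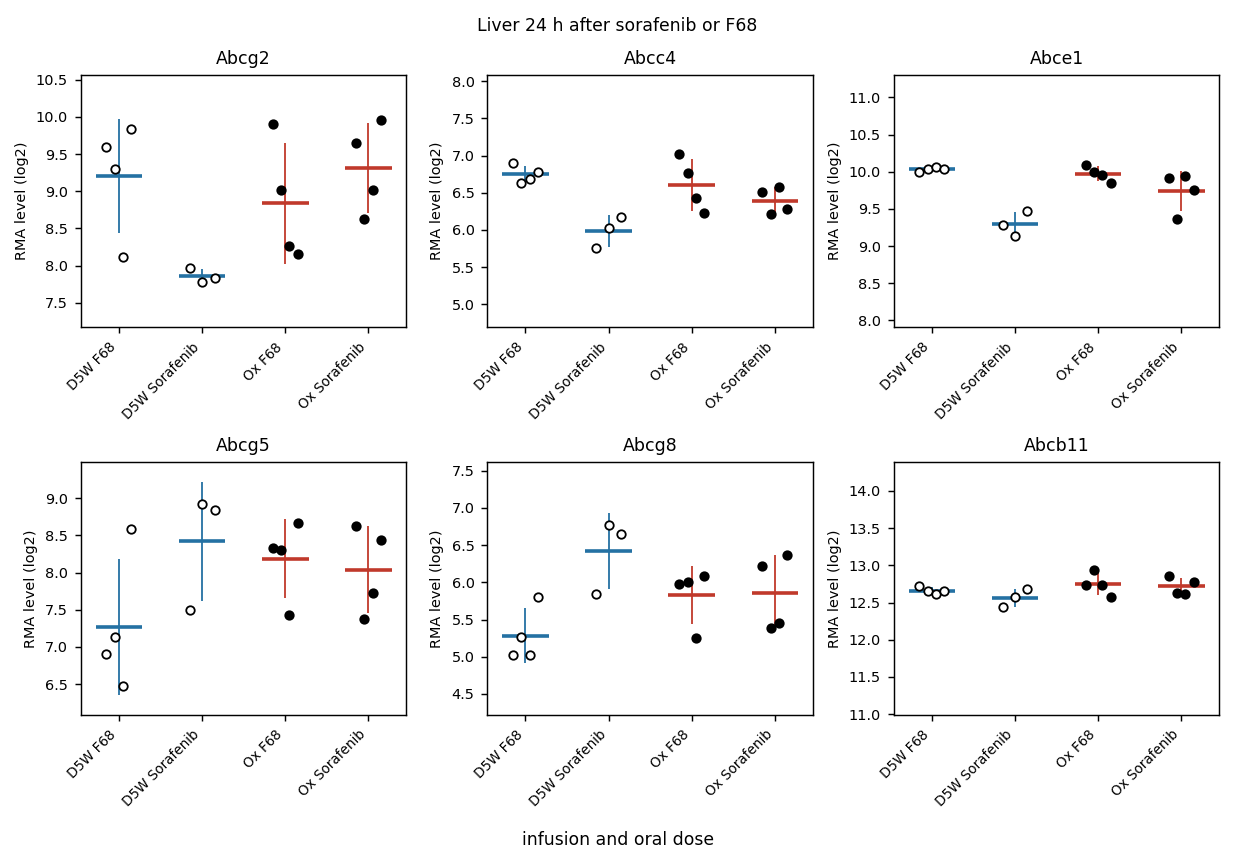
RMA level (log2) of each liver at 24 h for 6 ABC genes, by infusion (open circles D5W, filled circles oxaliplatin, Ox) and oral dose, with mean and SD, 4 rats per group and 3 for D5W sorafenib; the vertical axes all span 3.4 log2 units. Abcg2, Abcc4 and Abce1 are lowest in the D5W sorafenib livers, Abcg5 and Abcg8 vary together, and Abcb11 stays between 12.44 and 12.94.

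In heart the sterol exporter Abcg1 was higher 6 h after sorafenib in both infusion arms. After D5W it stood at 8.60, 8.41, 8.66 and 8.29 with F68 and 9.44, 8.84, 9.21 and 8.97 with sorafenib. After oxaliplatin it stood at 7.68, 8.16, 8.35 and 8.25 with F68 and 9.19, 8.91, 8.96 and 8.75 with sorafenib. Sorafenib hearts were above F68 hearts in each arm without overlap, by 0.62 ± 0.19 (1.54-fold, adjusted p = 0.00538) after D5W and by 0.84 ± 0.19 (1.79-fold, adjusted p = 0.00354) after oxaliplatin. With the mean of all its probe sets the difference after D5W was 0.12 (adjusted p = 0.259). The D5W sorafenib hearts at 6 h are among those that stood apart, with a beta-actin difference of 0.69. Where only the groups of the comparison were fitted, Abcg1 was not called after oxaliplatin. Mylip, also a liver X receptor target, rose by 1.23 ± 0.13 and by 0.97, and Pltp rose by 0.39 after oxaliplatin. Of the 11 sterol efflux partners tested, 1 rose and 5 fell after D5W and 2 rose and 0 fell after oxaliplatin. In kidney at 6 h after oxaliplatin Abcg1 stood at 8.56, 8.29, 9.03 and 8.51 with F68 and 9.47, 9.52, 9.83 and 9.07 with sorafenib, the 1 call of 32 members there (0.88 ± 0.22, adjusted p = 0.0394, background 0.544%). That call was kept in 2 of 8 fits that left out 1 array, and after D5W the kidneys overlapped, at 9.20, 8.54, 9.70 and 9.52 against 9.52, 9.74, 9.34 and 9.70.

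Cardiac Abcb1a, a pump of the endothelial barrier, passed the level filter mainly through sorafenib hearts. Its adjusted p-values are therefore not independent of that filter and are given as description only. Its levels were higher with sorafenib at single times. At 24 h after D5W it stood at 5.41, 5.12, 5.35 and 5.43 with F68 and 5.85, 6.08, 5.68 and 5.84 with sorafenib. The arms did not overlap, and the difference was 0.53 ± 0.11 (adjusted p = 0.00116). At 6 h after oxaliplatin it stood at 5.44, 5.51, 5.59 and 5.48 against 5.80, 5.78, 6.00 and 6.52 (0.52 ± 0.11, adjusted p = 0.00297, and 0.0705 with the mean of its probe sets). The gene was over 6 on 5 heart arrays, 4 of sorafenib rats and 1 of a sunitinib rat, so that it was tested through groups where it was high, and all F68 levels lay under the filter, where no fold is given. At 24 h after oxaliplatin the arms overlapped, and 0 of 29 members were called (background 1.72%, 2 at an unadjusted p under 0.05). Abcc1 was the other call at 24 h after D5W (-0.21 ± 0.07, background 7.05%). It was kept in 3 of 8 fits that left out 1 array, and lost without any 1 of D5W F68 replicates 3 and 4 and D5W sorafenib replicates 2 to 4. It was also lost with a further quantile normalization (adjusted p = 0.218), with beta-actin as a covariate (adjusted p = 0.223) and with only the groups of the comparison fitted (adjusted p = 0.111). Endothelial markers went both ways at 24 h after D5W, with Kdr at -0.96 and Vwf at 0.49, and macrophage markers were lower in 5 of 7; their part was not tested.

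At 6 h after D5W 17 of 29 members were called in heart (background 41.9%), 8 higher (background 18.2%) and 9 lower (background 23.7%), with the D5W sorafenib group described above as one arm. Abcc1 stood at 8.59, 8.62, 8.48 and 8.58 with F68 and 9.39, 9.34, 9.43 and 9.55 with sorafenib (0.86 ± 0.07, adjusted p = 8.21e-18). After oxaliplatin it stood at 8.55, 8.49, 8.56 and 8.79 against 8.62, 8.68, 8.66 and 8.52 and was not called. Abcc4 rose by 0.64 ± 0.12, with 7.24, 6.98, 7.44 and 7.35 against 7.73, 7.99, 7.99 and 7.86. Abcd3 (0.44), Abca8a (0.32), Abcc5 (0.26), Abcc9 (0.26) and Abcb10 (0.25) were higher, and Abcc5 was at -0.02 with the mean of its probe sets. Abcc3 was lower by 0.51 ± 0.11, Abca5 by 0.33 ± 0.08, and 7 others by 0.11 to 0.26 (Abcc10, Abcf3, Abcb6, Abcf2, Abcg2, Abca3 and Abcf1). With beta-actin as a covariate Abcc1 (adjusted p = 4.49e-09), Abcd3 (adjusted p = 0.000776) and Abcc4 (adjusted p = 0.036) were called and Abcc3 (adjusted p = 0.094), Abcf2 (adjusted p = 0.104) and Abcb6 (adjusted p = 0.349) were not.

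After oxaliplatin the 6 h comparison in heart gave 4 calls of 29 (background 7.57%): beside Abcg1 and Abcb1a, Abcg3l1 rose by 0.39 ± 0.11 and Abca5 fell by 0.28 ± 0.08. The count was 1 without Oxaliplatin F68 replicate 1 or Oxaliplatin sorafenib replicate 4, and 0 where only the groups of the comparison were fitted. The effect differed between the infusion arms for 7 members at 6 h (background 17.1%), led by Abcc1 (-0.84 ± 0.10) and Abcc3 (0.62 ± 0.15), and for Abca3 and Abcf1 at 1 h (background 5.58%). The 6 h count was 4 without Oxaliplatin F68 replicate 1, 2 with beta-actin as a covariate and 3 with only the groups of the comparison fitted. The 1 h count was 0 with a further quantile normalization (6 at an unadjusted p under 0.05, limma) and with only the groups of the comparison fitted (7 unadjusted), and 1 with beta-actin as a covariate. It was also 1 without any 1 of D5W F68 replicates 1 to 3, D5W sorafenib replicates 2 and 4, Oxaliplatin F68 replicate 1 and Oxaliplatin sorafenib replicates 1, 3 and 4.

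At 1 h Abca5, a lysosomal lipid transporter, was higher in both arms, at 5.84, 5.69, 5.82 and 5.94 with F68 against 6.28, 6.12, 6.11 and 6.08 with sorafenib after D5W (0.33 ± 0.08, adjusted p = 0.0079). After oxaliplatin it was at 6.16, 5.97, 5.86 and 5.94 against 6.34, 6.37, 6.29 and 6.29 (0.34 ± 0.08, adjusted p = 0.0184; 1 call of 29, background 2.15%, and 0 without F68 replicate 3 or sorafenib replicate 3). All F68 levels of Abca5 at 1 h after D5W lay under the level filter of 6, and the gene was over it on 57 of 96 heart arrays. By 6 h it was lower than with F68 in both arms (-0.33 and -0.28). The other calls at 1 h after D5W, 4 in all (background 12.2%), were Abcb10 (-0.23), Abca2 (-0.19) and Abcf1 (-0.14). The count was 2 without any 1 of D5W F68 replicates 1 to 3 and D5W sorafenib replicates 1 and 2. It was 0 with a further quantile normalization and with only the groups of the comparison fitted (5 at an unadjusted p under 0.05 in each, limma), where Abca5 had an adjusted p of 0.0618 and 0.0824.

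In kidney sorafenib gave 0 calls of 32 members at all 3 times after D5W (background 0, 0.0731% and 0.203% at 1, 6 and 24 h, with 1, 2 and 2 at an unadjusted p under 0.05). After oxaliplatin it gave 0 at 1 h and 24 h (background 0.00812% and 0, with 3 and 2 unadjusted). No member's sorafenib effect was called as differing between the infusion arms in kidney (background 0.00812% at 24 h and 0 earlier, with 0 to 2 unadjusted).

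Sunitinib was compared with water in the same way. In kidney 0 of 32 members were called at any time after D5W (background 0.0244% at 1 h and 0 later) or after oxaliplatin (background 0.244% at 1 h and 0 later), with 0 to 6 members at an unadjusted p under 0.05 (limma). At 1 h after oxaliplatin the renal count was 2, 3 and 4 without sunitinib replicates 2, 3 and 4. Sunitinib replicate 1 of that group, kept in the main fit, had an array median of 7.81, against 7.34 to 7.35 on the other arrays of the group. In liver 0 of 33 were called (background 0.964% at 24 h after D5W and 0 elsewhere), with 0 to 5 unadjusted. In heart 0 of 29 were called at 1 h after D5W (background 10%) and at 6 h (background 0), with 5 and 2 unadjusted. At 24 h after D5W 9 were called (background 25.4%), against the D5W water hearts that stood apart. Abcc1 stood at 9.40, 9.51, 9.27 and 9.34 with water and 8.77, 8.80, 8.76 and 8.71 with sunitinib (-0.62 ± 0.07), and Abcd3 was lower by 0.28. Abcc3 (0.41), Abcf2 (0.29), Abce1 (0.27), Abcb8 (0.27), Abcb6 (0.23), Abcf1 (0.19) and Abcf3 (0.17) were higher. With beta-actin as a covariate 5 of the 9 were called. After oxaliplatin 0 were called at 1 h and 6 h (background 0 and 0.00884%, 1 and 1 at an unadjusted p under 0.05) and at 24 h (background 0, 2 unadjusted), where Abcc1 stood at 8.76, 8.71, 8.88 and 9.0 with water and 8.73, 8.51, 8.60 and 8.87 with sunitinib. The effect differed between infusion arms for 5 members at 24 h (background 14.4%) and for Abca8 at 1 h (background 6.56%). The Abca8 call was lost without any 1 of D5W sunitinib replicates 1 and 3, D5W water replicates 2 and 3, Oxaliplatin sunitinib replicates 2 and 3 and Oxaliplatin water replicates 1, 3 and 4.

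The vehicles themselves were compared as F68 against water over both infusions (8 rats against 8), a difference that also holds the dosing day. In kidney Abcc5, which exports cyclic nucleotides, was 0.44 ± 0.14 higher at 1 h (2 members called, background 18.3%) and 0.59 ± 0.14 higher at 6 h (5 called, background 9.3%). At 6 h it stood at 9.13, 8.35, 9.77 and 9.12 with F68 and 8.20, 8.73, 8.17 and 8.52 with water after D5W, and at 8.76, 8.77, 9.51 and 8.79 against 8.09, 8.52, 8.46 and 8.81 after oxaliplatin, so that the arms overlapped. Abcg1 was 0.46 higher at 6 h, Abcg3l1 was lower at both times (-0.38 and -0.30), and Abcd4 (-0.28) and Abca5 (-0.16) were lower at 6 h. The renal count at 1 h was 1 without any 1 of D5W water replicate 2, Oxaliplatin F68 replicates 1 and 3 and Oxaliplatin water replicate 1, and 4 without Oxaliplatin F68 replicate 2. At 6 h it was 2 without D5W F68 replicate 4, and 3 without any 1 of D5W F68 replicates 1 and 3, D5W water replicates 3 and 4, Oxaliplatin F68 replicates 1 and 3 and Oxaliplatin water replicate 1. In liver Abcc6 was 0.23 higher at 1 h (1 called, background 0.852%), and Abcc2 (-0.46) and Abcc4 (-0.41) were lower at 6 h (2 called, background 2.29%). The hepatic count at 1 h was 0 without D5W water replicate 4. At 6 h it was 0 without any 1 of D5W F68 replicate 4, D5W water replicate 4, Oxaliplatin F68 replicates 2 and 3 and Oxaliplatin water replicates 2 and 3, and 1 without any 1 of D5W F68 replicates 2 and 3, D5W water replicates 2 and 3, Oxaliplatin F68 replicate 1 and Oxaliplatin water replicate 4. At 24 h 0 were called in kidney (background 0.276%, 4 at an unadjusted p under 0.05) and in liver (background 2.52%, 0 unadjusted). In heart 2, 1 and 8 members were called at 1, 6 and 24 h (background 12.9%, 13.2% and 12.5%), and at 24 h Abcc1 (-0.28) and Abcc8 (0.25) differed most. The water arm at 24 h holds the D5W water hearts that stood apart. With beta-actin as a covariate the count moved from 8 to 4 at 24 h, where Abcc1 was called (adjusted p = 0.00656) and Abcc8 was not (adjusted p = 0.0697), and from 2 to 0 at 1 h (2 at an unadjusted p under 0.05, limma). The 1 h count was 1 without any 1 of D5W F68 replicate 2, D5W water replicates 1 to 4, Oxaliplatin F68 replicates 3 and 4 and Oxaliplatin water replicates 2 and 4. The 6 h count was 0 (1 unadjusted) where only the groups of the comparison were fitted. It was also 0 without any 1 of D5W F68 replicates 2 and 4, D5W water replicate 2, Oxaliplatin F68 replicates 1 and 3 and Oxaliplatin water replicates 3 and 4.

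Between 1 and 6 h in rats given D5W and a vehicle (8 against 8), few members moved. In kidney Abcc4 rose by 0.30 ± 0.07 (1 of 32, background 1.98%), and the count was 2 without the 1 h D5W water replicate 3 or the 6 h D5W water replicate 1 and 3 without the 6 h D5W F68 replicate 2. In liver Abcf2 (0.19) and Abcf3 (0.16) rose and Abcc8 fell by 0.38 ± 0.12 (3 of 33, background 11.3%). In heart Abca5 (0.27) and Abcc10 (0.18) rose, and Abce1 (-0.27 ± 0.04), Abcf1 (-0.13) and Abcb10 (-0.11) fell (5 of 29, background 36.8%), and Abce1 and Abcf1 had no overlap between times. With a further quantile normalization Abca5 (adjusted p = 0.00553) and Abce1 (adjusted p = 6.79e-05) were called, and Abcb10 (adjusted p = 0.363), Abcc10 (adjusted p = 0.109) and Abcf1 (adjusted p = 0.576) were not. The count was 3 without any 1 of the 1 h D5W F68 replicate 2, 1 h D5W water replicate 4, 6 h D5W F68 replicate 2 and 6 h D5W water replicate 1. The arrays of 24 h carry another code in their labels than those of 1 and 6 h, so no later time was compared. That code also differs between the tissues, and its meaning is not stated.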

How the data were processed

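Expression was measured on 288 Affymetrix rat arrays, 1 per rat and tissue. The deposited values are log2 levels per probe set that the authors made with RMA (version not given in the sources used here), which corrects background, normalizes quantiles and summarises probes. Whether tissues were normalized together is not given there. Arrays carry no read depth, and the number of arrays limits the precision. Each gene with 1 symbol was represented by its brightest probe set in the tissue, and genes over 6 log2 on 4 or more arrays were tested. Of the arrays, 2 were left out by tissue markers.

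For each tissue 1 limma model (limma 3.58.1, R 4.3.3) with a mean per group was fitted, and p-values were adjusted (Benjamini-Hochberg) over all genes tested. Oxaliplatin was averaged over both vehicles, and oral drugs were tested against their own vehicle within each infusion. Values after ± are SE unless SD is written. The named genes are the members called in a comparison, the pumps of bile and drugs and the listed pathway genes. Members and lists were chosen with earlier results of these data known. The fit was tested on data simulated with independent normal errors and 1 spread per gene. It recovered 81 to 97% of changes of 0.5 log2 and 93 to 99% of changes of 1 log2. The share of false calls was 3.08 to 7.89%, with 7.89% for sorafenib after D5W in liver at 24 h and 7.18% for oxaliplatin in kidney at 6 h. Alternatives were another normalization, filter, probe set rule, set of samples, beta-actin covariate, and each array left out.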

Additional observations from a re-analysis of the deposited data

Results flagged for a closer look

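Among 102 sets of 4 values examined rat by rat, each 1 gene in 1 group, 3 held a value far from the other 3 by Dixon's test. Chance gives this in about 1 of 20 sets, and the sets are not independent because the same rats enter several of them. Abcc1 was at 8.64 in the Kidney 6 h D5W water rat replicate 2, Abcg8 was at 5.25 in the Liver 24 h Oxaliplatin F68 rat replicate 3, and Abcc5 was at 9.51 in the Kidney 6 h Oxaliplatin F68 rat replicate 3.

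Oral drug effects that differed between the infusion arms (effect after oxaliplatin minus effect after D5W, log2, limma interaction at an adjusted p under 0.05) were found in heart and liver. For sorafenib in liver at 24 h these were Abcg2 (1.83), Abce1 (0.52), Abcd4 (0.47), Abcd3 (0.44), Abcf1 (0.42), Abcf2 (0.33), Abcb8 (0.29), Abca5 (-0.35) and Abcc10 (-0.41), with 3 rats in the D5W sorafenib group. For sorafenib in heart they were Abcf1 (0.23) and Abca3 (0.30) at 1 h, and Abcc1 (-0.84), Abcd3 (-0.34), Abcf2 (0.16), Abcf3 (0.23), Abcb6 (0.26), Abca3 (0.28) and Abcc3 (0.62) at 6 h. For sunitinib in heart they were Abca8 (0.59) at 1 h, and Abcc1 (0.46), Abcb6 (-0.31), Abce1 (-0.37), Abcb8 (-0.38) and Abcf2 (-0.38) at 24 h. The heart results at 6 and 24 h rest on the D5W sorafenib and D5W water groups with beta-actin differences of 0.69 and 0.76. The liver results rest on the D5W sorafenib livers, with a beta-actin difference of 0.67.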

How the results depend on the processing

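Counts are members called at any time, in order heart, kidney, liver where 3 are given. The study's design limits the precision to 4 rats a group, and arrays carry no depth. Treatments were compared between different rats, so no paired analysis applied. Between tissues, the position in the array code recurs for a treatment and time but is not stated to mark a rat. Among vehicle rats, arrays sharing a position were correlated over all genes after the group mean was taken off. The median r was 0.16 for heart and kidney, 0.18 for heart and liver and 0.19 for kidney and liver (24 pairs each). Whether position marks a rat was not tested. With position as a random replicate block, an alternative chosen after seeing the data, 26 ABC genes were called, the same 26 as without it (consensus correlation 0.097). Of 145 calls of a member in a comparison, 88 were kept whichever single array was left out, and 47 were also called under the 6 alternatives.

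With the beta-actin covariate, counts in heart moved from 9 to 5 (sunitinib after D5W), 8 to 3 (sorafenib effect changed by oxaliplatin) and 10 to 5 (F68 against water), and in kidney from 1 to 0 (sorafenib after oxaliplatin). With only the groups of the comparison fitted, sorafenib after oxaliplatin moved from 4 to 0 in heart and 1 to 0 in kidney, the sorafenib effect changed by oxaliplatin from 8 to 3 in heart and 9 to 0 in liver, and F68 against water from 3 to 0 in liver. With the misplaced arrays kept as labelled, kidney moved from 0 to 7 (sorafenib after D5W), 1 to 0 (sorafenib after oxaliplatin), 5 to 3 (F68) and 1 to 0 (6 h against 1 h), and liver from 9 to 5 (oxaliplatin) and 3 to 0 (F68). With a further quantile normalization, kidney moved from 1 to 2 (sorafenib after oxaliplatin), 5 to 8 (F68) and 1 to 3 (6 h against 1 h), and liver from 3 to 1 (6 h against 1 h). With the mean of all probe sets, kidney moved from 0 to 1 (sunitinib after oxaliplatin) and 1 to 0 (sorafenib after oxaliplatin), and with no level filter from 5 to 3 (F68). Oxaliplatin calls within 1 vehicle, an alternative chosen after seeing the data, were 8, 9 and 2 in water rats and 0, 6 and 1 in F68 rats, against 8, 14 and 9. The share over all genes within 1 vehicle was not counted. Both misplaced arrays belong to the D5W sorafenib groups at 24 h. They are in no arm of the oxaliplatin, F68, time and sorafenib after oxaliplatin comparisons, and enter these only through the estimate of the spread that all groups share. The cause of the shifts was not tested, and arms within 1 vehicle hold fewer rats.

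The reversals were Abcc5 in heart at 6 h (sorafenib after D5W, -0.02) and Abcc9 in heart at 24 h (F68 against water, -0.06) with the mean of all probe sets, and Abca3 (0.02) and Abcf3 (0.16) in liver at 24 h (sorafenib after D5W) with a further quantile normalization.

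With each array left out in turn, counts ranged 7 to 8, 12 to 15 and 7 to 10 for oxaliplatin. They ranged 9 to 10, 0 to 0 and 0 to 0 for sunitinib after D5W, 0 to 0, 0 to 4 and 0 to 0 for sunitinib after oxaliplatin, and 5 to 8, 0 to 0 and 0 to 0 for the change in the sunitinib effect. They ranged 15 to 19, 0 to 0 and 15 to 17 for sorafenib after D5W, 2 to 5, 0 to 2 and 0 to 1 for sorafenib after oxaliplatin, and 6 to 9, 0 to 0 and 5 to 12 for the change in the sorafenib effect. They ranged 9 to 11, 3 to 6 and 1 to 3 for F68 against water, and 3 to 6, 1 to 3 and 2 to 3 for 6 h against 1 h.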
